A study of Homo sapiens with 4 samples.

Results

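SREBF2 and 6 of the genes it controls, HMGCS1, INSIG1, SQLE, IDI1, FDFT1 and DHCR7, were followed in SH-SY5Y cells exposed to the nitric oxide donor sodium nitroprusside (SNP). SH-SY5Y is an established human neuroblastoma line. The genes were chosen by symbol as the cholesterol synthesis and SREBP2 genes of the series. Earlier results of these data were known when they were chosen. All 7 were present among the 58243 genes of each table, and all 7 passed the filter on low counts that left 14759 genes for the test. RNA was sequenced in 4 libraries. The 2 control libraries came from cells that received no agent, and the 2 SNP libraries came from cells described as oxidized, for which the labels give an exposure of 8 h. All cells grew in medium with 10% fetal bovine serum, itself a source of lipoprotein cholesterol, and settled for 24 h before treatment. The SNP dose of these libraries was not given in the sources used here. The treatment text speaks of cells differentiated with retinoic acid, and of 5 genes that respond to it, CYP26A1 had 0 counts in each library, CYP26B1 at most 5, DHRS3 13 to 25, RARB 17 to 28 and RET 2739 to 2863. The labels do not say which of these libraries had been differentiated. The labels do not say that replicates a and b were separate cultures, so the p-values measure the spread between these samples, which may be technical.

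Cholesterol is made from acetyl-CoA by a long chain of enzymes in the cytosol, the endoplasmic reticulum and the peroxisome. SREBP2, the product of SREBF2, is the transcription factor that switches this chain on. It is made as a membrane protein, held in the endoplasmic reticulum by the sterol sensor SCAP and the INSIG proteins when sterols are plentiful. When sterols fall, SCAP carries it to the Golgi, proteases release its soluble part, and this part enters the nucleus and binds sterol regulatory elements in the promoters of the synthesis genes and of SREBF2 itself. Neurons and neuroblastoma cells both make cholesterol and take it up.

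Promoter sequences are shown for the 2 members that passed the test, SREBF2 and IDI1, and for HMGCS1, the classic sterol-regulated promoter among the members. They are RefSeq windows of 250 bases before to 50 bases after a gene start on GRCh38.p14, read 5′ to 3′ on the gene's own strand, at chr22:41832855-41833154 on the plus strand, chr10:1048837-1049136 on the minus strand and chr5:43313363-43313662 on the minus strand. Capitals mark matches, on either strand, to TCACNCCA, the core of a sterol regulatory element, and to CCAAT, the element bound by NF-Y, which reads ATTGG when it lies on the opposite strand.
SREBF2: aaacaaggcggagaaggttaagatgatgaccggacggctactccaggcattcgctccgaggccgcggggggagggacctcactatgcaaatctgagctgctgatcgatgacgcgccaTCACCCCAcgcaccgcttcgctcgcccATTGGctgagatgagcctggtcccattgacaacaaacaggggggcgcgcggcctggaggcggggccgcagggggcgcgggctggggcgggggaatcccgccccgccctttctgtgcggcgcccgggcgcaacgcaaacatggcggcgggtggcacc
IDI1: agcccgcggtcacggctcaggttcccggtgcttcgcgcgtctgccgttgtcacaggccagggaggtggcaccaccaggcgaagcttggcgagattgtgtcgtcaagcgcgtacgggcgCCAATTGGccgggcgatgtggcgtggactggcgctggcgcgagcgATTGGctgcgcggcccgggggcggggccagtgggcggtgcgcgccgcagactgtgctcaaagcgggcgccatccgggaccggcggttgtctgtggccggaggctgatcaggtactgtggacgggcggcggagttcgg
HMGCS1: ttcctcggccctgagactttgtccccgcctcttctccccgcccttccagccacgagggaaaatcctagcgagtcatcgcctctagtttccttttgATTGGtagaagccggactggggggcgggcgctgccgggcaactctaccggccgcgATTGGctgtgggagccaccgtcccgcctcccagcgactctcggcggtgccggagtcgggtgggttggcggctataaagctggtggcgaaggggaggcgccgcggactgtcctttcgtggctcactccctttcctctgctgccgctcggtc
In the SREBF2 window the match TCACCCCA began at position -133, counted from the gene start as 0, and a CCAAT match on the opposite strand began at position -106. In the IDI1 window shown, a CCAAT match at -132 overlapped another on the opposite strand at -129, and a further match lay at -87. The HMGCS1 window shown held CCAAT matches at -155 and -100, both on the opposite strand. RefSeq lists further windows for IDI1 and HMGCS1. The IDI1 window at chr10:1049070-1049369 held CCAAT matches at -215 and -117, both on the opposite strand. The windows at chr10:1056655-1056954 and chr5:43313132-43313431 held no CCAAT match.

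Of the 9 windows that RefSeq lists for 5 members, 1 held TCACNCCA, compared with 3.95% of all 35116 windows of this length, and 6 held CCAAT, compared with 34.6% of all windows. Each of these 5 genes had CCAAT in at least 1 of its windows, as did 10846 of all 27305 genes with windows and 4519 of 10416 genes tested here. A gene with more windows has more places for a match. In INSIG1, at chr7:155297628-155297927, the match lay at -170, and in DHCR7, at chr11:71448344-71448643, matches lay at -94 and -48. GGGCGG, the GC box read by Sp1, was in 8 of the 9 windows, compared with 45.0% of all windows and 65.5% of the windows of genes tested here. Over the whole synthesis chain, 16 of 22 windows, from 17 genes, held CCAAT and 2 held TCACNCCA. SQLE and FDFT1 had no entry. A match describes the letters of the window and is not evidence of binding.

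The libraries held 5613144 to 8056550 counts, with the larger totals in the SNP libraries, and 19313 to 20789 genes had a count above 0. A floor of 3 counts corresponded to 0.372 to 0.534 CPM, counts per 1000000 counts of a library. Levels are given as CPM scaled by TMM, and comparisons between genes use TPM, which also divide by length. Over all genes, 3861 of 14759 (26.2%) differed between SNP and control at an adjusted p under 0.05, 2002 higher (13.6%) and 1859 lower (12.6%) after SNP, so 51.9% of the differences were rises. With the larger read totals implied by the RPKM values as the scale, 63.1% were rises. Both SNP libraries lay on one side of both controls in 9453 genes (64.0%). Of 13 sympathoadrenal markers that define SH-SY5Y, 12 passed the filter and TH had 0 counts in all 4 libraries. The summed level of these markers was 5870 and 6100 TPM in the controls and 4930 and 5360 TPM after SNP. Of these 12, 9 passed the test, 6 lower, such as DBH (log2 fold change -1.38), and 3 higher, HAND2 (0.41), CHGA (0.91) and CHGB (0.97). The 5 fibroblast markers summed to 32.9 and 26.5 TPM in the controls and 47.0 and 49.3 TPM after SNP. Of the 3 tested, COL3A1 was higher (0.68), COL1A2 was lower (-1.67) and DCN did not pass, and no fibroblast marker was at 0 in all libraries. Markers of epithelium summed to between 4.41 and 8.15 TPM, and the 4 blood cell markers were at 0. Mitochondrial genes took 4.99% and 4.43% of the counts in the controls and 2.99% and 2.72% after SNP. The part of these shifts in the results below was not tested. In bulk RNA, fewer cells of a type and less RNA per cell cannot be told apart.

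The members did not share 1 direction. SREBF2, the regulator, fell, IDI1, an enzyme of the isoprenoid steps, rose, and the other 5 did not pass the test. The 2 of 7 members that passed (28.6%) stand beside the 26.2% of all genes, with 1 in each direction, a share near that of all genes. The median log2 fold change of the 7 was -0.33, compared with -0.00 over all genes tested. In 5 of the 7 the SNP libraries lay on one side of both controls, above them in 2 and below them in 3, beside the 64.0% of all genes for which this held. The summed level of the 7 genes was 195 and 191 TPM in the controls and 190 and 181 TPM after SNP.

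**Figure D1:**
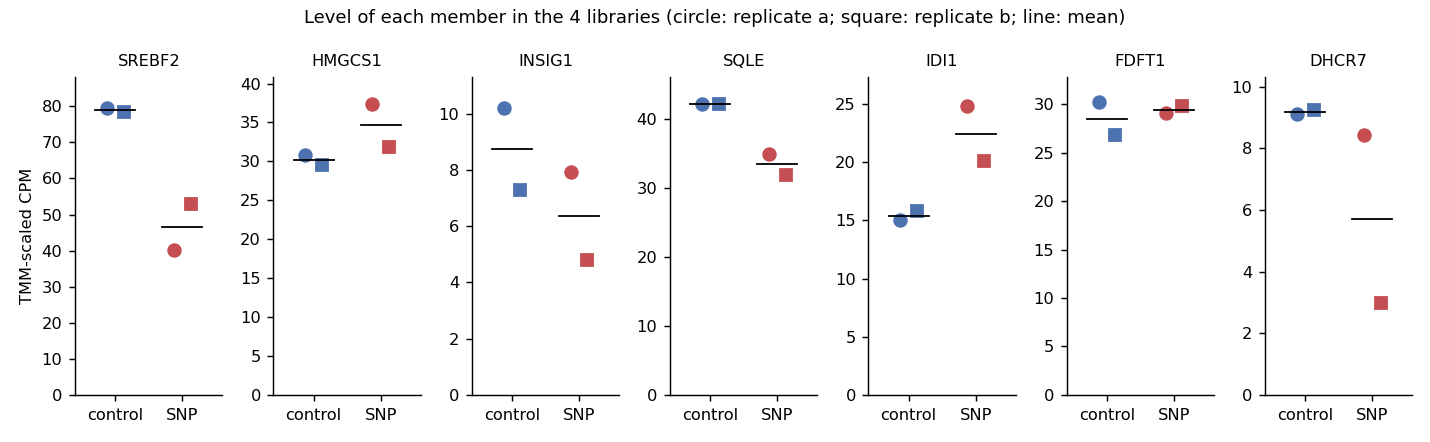
Level of each of the 7 genes in TMM-scaled CPM (vertical axes, each starting at 0 with its own scale) in the 2 control (blue) and 2 SNP (red) libraries. Circles are replicate a, squares replicate b and lines the group means. SREBF2 is at 79.6 and 78.5 in the controls and at 40.3 and 52.8 after SNP, and IDI1 moves from 15 and 15.8 to 24.8 and 20.1.

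SREBF2 (ENSG00000198911) lies on the plus strand of chr22:41833079-41907308 on GRCh38, with 24 merged exons spanning 7557 bases in GENCODE 29. Its level was 79.6 and 78.5 CPM in controls a and b and 40.3 and 52.8 CPM in SNP a and b, from 516, 442, 320 and 407 counts. The controls were nearly equal, the SNP libraries were spread more widely, and the groups did not overlap. The mean was 79.0 ± 0.781 CPM (SD, n = 2) in control and 46.5 ± 8.83 CPM (SD, n = 2) after SNP. The transcript of the regulator stood at 0.588 times its control level, a log2 fold change of -0.77 with a standard error of 0.133 and a 95% interval from -1.04 to -0.49. Its edgeR quasi-likelihood, Benjamini-Hochberg adjusted p was 2.4e-04. The difference kept its direction and its call whichever library was left out, with log2 fold changes between -0.97 and -0.58. An antisense RNA, AL021453.1, shares 280 exonic bases with SREBF2 (3.71%) and had at most 2 counts. MIR33A, the microRNA in an intron of SREBF2 that represses cholesterol efflux genes, had 0 counts in all 4 tables. Counts of 75 bp reads per gene are not a measure of a mature microRNA, so its level is not known here.

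INSIG1 (ENSG00000186480, chr7:155297776-155310235, plus strand, 6 merged exons) encodes the retention protein that holds SCAP in the endoplasmic reticulum and is itself one of the most sterol-responsive targets of SREBP2. Its level was 10.2 and 7.28 CPM in the controls and 7.93 and 4.80 CPM after SNP. The groups overlapped, since SNP a lay between the controls, and the controls differed from each other about as much as the SNP libraries did. With 37 to 66 counts a library the log2 fold change was -0.46 with a standard error of 0.299 and a 95% interval from -1.08 to 0.16, and it did not pass (edgeR quasi-likelihood, Benjamini-Hochberg adjusted p = 0.276). INSIG2, the paralogue that is not driven by SREBP2, was at 23.0 and 21.5 CPM in control and 24.8 and 24.2 CPM after SNP, a log2 fold change of 0.14. Per length, INSIG2 exceeded INSIG1 by 2.09 and 2.73 times in the controls and by 2.89 and 4.67 times after SNP.

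HMGCS1 (ENSG00000112972, chr5:43289395-43313512, minus strand, 12 merged exons) encodes the synthase that makes HMG-CoA, an early intermediate of the chain. Its level was 30.8 and 29.5 CPM in control and 37.4 and 31.9 CPM after SNP. Both SNP libraries lay above both controls, SNP b only slightly. The log2 fold change was 0.20 with a standard error of 0.152 and a 95% interval from -0.12 to 0.52, and edgeR's quasi-likelihood, Benjamini-Hochberg adjusted p was 0.363. An antisense RNA, AC114947.2, overlaps 703 of its exonic bases (15%) but had at most 1 count.

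IDI1 (ENSG00000067064, chr10:1039152-1049170, minus strand, 4 merged exons) encodes the isomerase that turns isopentenyl into dimethylallyl pyrophosphate, the starter of all isoprenoid chains. Its level was 15 and 15.8 CPM in control and 24.8 and 20.1 CPM after SNP, from 97, 89, 197 and 155 counts. The controls lay close together and both SNP libraries lay above them. The mean rose from 15.4 ± 0.595 to 22.4 ± 3.32 CPM (SD, n = 2 each), a fold of 1.46 and a log2 fold change of 0.55 with a standard error of 0.188 and a 95% interval from 0.16 to 0.94. It passed edgeR's quasi-likelihood test with a Benjamini-Hochberg adjusted p of 0.0357. This call was narrow. It was lost in 11 of 18 alternatives. Over all 18 the adjusted p ran from 0.00875 to 0.561, and the sign was positive in each. Without control a, control b or SNP a the log2 fold change was 0.50, 0.59 and 0.39 and the edgeR quasi-likelihood, Benjamini-Hochberg adjusted p was 0.187, 0.109 and 0.205. The antisense RNA IDI2-AS1 overlaps 643 exonic bases of IDI1 (14.8%) and had 6 to 9 counts. Whether counting took account of strand was not given in the sources used here, so reads from the shared stretch cannot be told apart.

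FDFT1 (ENSG00000079459, chr8:11795573-11839309, plus strand, 12 merged exons) encodes squalene synthase, which draws farnesyl pyrophosphate into the sterol branch. Its level was 30.2 and 26.8 CPM in control and 29.1 and 29.8 CPM after SNP. The SNP libraries fell between the controls. The log2 fold change was 0.04 with a 95% interval from -0.28 to 0.37 (edgeR quasi-likelihood, Benjamini-Hochberg adjusted p = 0.869). The interval admits a difference of up to those bounds in either direction.

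SQLE (ENSG00000104549, chr8:124998497-125022283, plus strand, 12 merged exons) encodes squalene epoxidase, which adds the first oxygen to squalene and is a further control point of the chain. Its level was 42.1 CPM in both controls and 34.9 and 31.9 CPM after SNP. Both SNP libraries lay below the controls. The log2 fold change of -0.33 had a standard error of 0.141 and a 95% interval from -0.63 to -0.04, but edgeR's quasi-likelihood, Benjamini-Hochberg adjusted p was 0.0861. SQLE shared no exonic base with another gene, nor did INSIG1 or DHCR7.

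DHCR7 (ENSG00000172893, chr11:71428193-71452868, minus strand, 11 merged exons) encodes the enzyme that reduces 7-dehydrocholesterol to cholesterol, which is deficient in Smith-Lemli-Opitz syndrome. Its level was 9.10 and 9.23 CPM in control and 8.43 and 2.98 CPM after SNP, from 59, 52, 67 and 23 counts. The controls were nearly equal, while SNP a lay just below them and SNP b far below. The log2 fold change was -0.68 with a standard error of 0.346 and a 95% interval from -1.39 to 0.04 (edgeR quasi-likelihood, Benjamini-Hochberg adjusted p = 0.159). This value rested on SNP b. Without SNP b it was -0.12, and without SNP a it was -1.61 with an edgeR quasi-likelihood, Benjamini-Hochberg adjusted p of 0.00341, within a range of 0.00341 to 0.818 over the alternatives.

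Per length, the order of the 7 transcripts differed between the groups. In the controls SREBF2 (49.2 ± 0.18 TPM, SD, n = 2) and SQLE (46.0 ± 0.604) led, followed by HMGCS1 (30.2 ± 0.562), FDFT1 (25.8 ± 1.84) and IDI1 (20.2 ± 1.05), each apart from its neighbours. INSIG1 (11.2 ± 2.49) and DHCR7 (10.4 ± 0.247) came last and changed places between the controls. After SNP the order by mean was SQLE (39.6 ± 1.21), HMGCS1 (37.6 ± 3.0), IDI1 (31.9 ± 3.69), SREBF2 (31.6 ± 7.0), FDFT1 (28.9 ± 1.46), INSIG1 (8.86 ± 2.81) and DHCR7 (6.94 ± 4.51). Among neighbours in this order, SQLE overlapped HMGCS1, IDI1 and FDFT1 each overlapped SREBF2, and INSIG1 overlapped DHCR7.

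Ratios within a library do not depend on how libraries are scaled to each other. IDI1 stood at 0.396 and 0.424 of SREBF2 in the controls and at 1.30 and 0.802 of it after SNP. Against SQLE, IDI1 stood at 0.426 and 0.45 in the controls and at 0.853 and 0.756 after SNP, while FDFT1 stood at 0.594 and 0.527 and then at 0.69 and 0.774. In each of these ratios the SNP libraries lay above both controls. These ratios describe unequal changes and were not tested. They are not adjusted for the base composition of the genes, with which fold changes moved, as described below. Genes near IDI1 in guanine minus cytosine content had a median log2 fold change of 0.34, and those near SREBF2 had -0.28. With offsets that include guanine over cytosine, IDI1 had 0.16 and SREBF2 had -0.50.

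The closest match to each member among 10559 or 10560 tested genes at 10 CPM or more was taken by the root mean square difference of log2 levels, centred on each gene's mean, over the 4 libraries. Near SREBF2 were CRTC1 (0.021) and MFSD13A (0.0215). Those nearest to IDI1 were TAX1BP1 (0.00485), VEGFA (0.0102) and STMN4 (0.0132). With 4 libraries in 2 groups many genes share such a pattern. DHCR7, whose SNP libraries differed most from each other, was matched only loosely, by the histone genes HIST1H4J (0.117), HIST1H1E (0.132) and HIST1H2AC (0.154). These are of different histone subtypes, each with several gene copies. The nearest genes were UNC50, FRMD5 and OCIAD1 for HMGCS1, CAT, GTF2IP4 and CCNE2 for INSIG1, DCAF12, MTFMT and ORC2 for SQLE, and PBRM1, PEAK1 and N4BP1 for FDFT1. None of these was another member, but INSIG1 and DHCR7 lay below 10 CPM and so could not be among the genes compared. Among the members, HMGCS1 and FDFT1 were closest (0.123) and IDI1 and DHCR7 farthest apart (0.759).

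The whole synthesis chain was described with 22 enzymes, 5 of them members. Most values leaned lower after SNP, with 15 of 22 below 0 and a median log2 fold change of -0.20, but only 3 passed the test, 1 higher and 2 lower (13.6% of the list, beside 26.2% of all genes). The 1 that rose was IDI1. Of the 2 that fell, CYP51A1 is described here. Of the 17 enzymes that are not members, 13 had a value below 0 and the median was also -0.20.

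CYP51A1, which removes the first methyl group from lanosterol, was at 61.8 and 64.1 CPM in control and at 50.7 and 46.2 CPM after SNP, a log2 fold change of -0.38 (edgeR quasi-likelihood, Benjamini-Hochberg adjusted p = 0.0293). The CYP51A1 call was lost in 7 of 18 alternatives, among them the fits without control a, control b and SNP b, where it had -0.41, -0.35 and -0.31, and the edgeR adjusted p ran from 0.00141 to 0.199 over the alternatives.

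**Figure D2:**
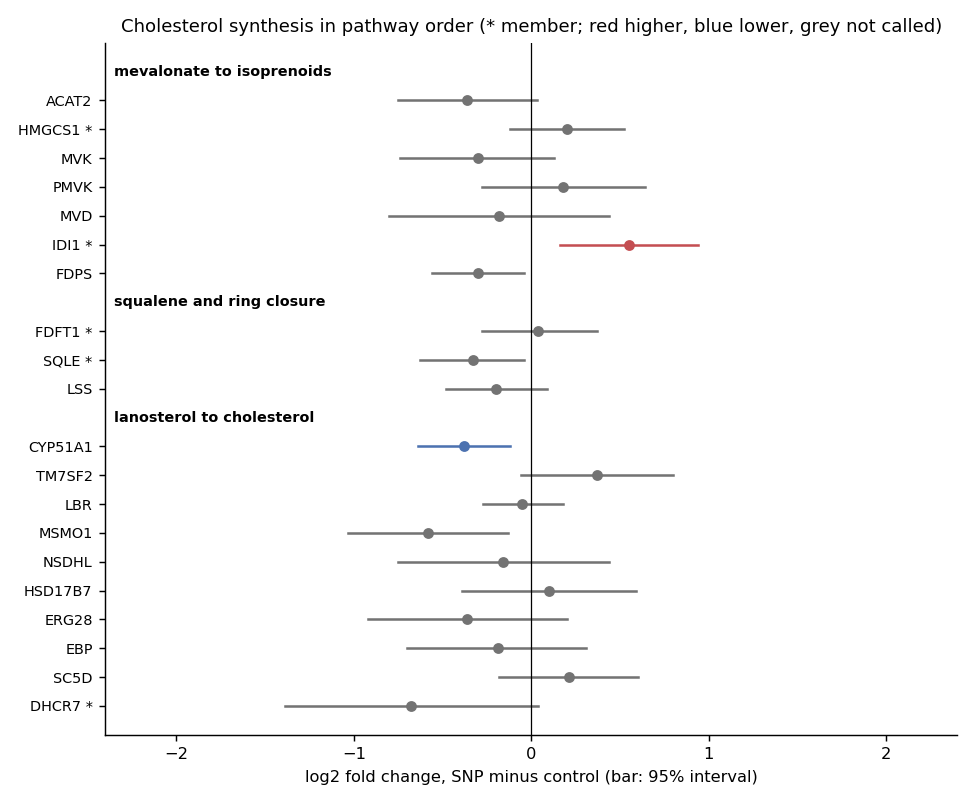
Log2 fold change, SNP minus control, of cholesterol synthesis enzymes in pathway order, not all 22 of them drawn, (points, with 95% intervals as bars); members carry an asterisk, red is called higher, blue called lower and grey not called. IDI1 is the red point, at 0.55, and CYP51A1, at -0.38, is the blue point.

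Among 17 genes of SREBP processing and sterol sensing, 2 fell, SREBF2 and SCAP, and 2 rose, UBE2G2 and ERLIN2. These 4 are 23.5% of the list, a share near the 26.2% of all genes, and the median log2 fold change was 0.07. SCAP, the escort that carries SREBP2 to the Golgi, was at 142 and 153 CPM in the controls and at 76.9 and 94.1 CPM after SNP. As with SREBF2, the controls were close and SNP a was the lower of the SNP libraries. SCAP stood at 0.58 times its control level, a log2 fold change of -0.78 with a standard error of 0.115 (edgeR quasi-likelihood, Benjamini-Hochberg adjusted p = 4.5e-05). The factor and its escort were lower by nearly the same proportion. The Golgi proteases that cleave SREBP2, MBTPS1 and MBTPS2, had log2 fold changes of 0.14 and 0.00 and did not pass.

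UBE2G2 and ERLIN2 act in the sterol-triggered degradation of proteins in the endoplasmic reticulum. UBE2G2, a ubiquitin-conjugating enzyme, rose by a log2 fold change of 0.34 (edgeR quasi-likelihood, Benjamini-Hochberg adjusted p = 0.0101). ERLIN2, a membrane scaffold, rose by 0.43 (edgeR quasi-likelihood, Benjamini-Hochberg adjusted p = 0.0475). The ERLIN2 call was lost in 11 of 18 alternatives, among them the fits without control a, control b and SNP a (0.45, 0.41 and 0.21). The UBE2G2 call was lost in 6 of 19, among them the fits without control a and control b (0.33 and 0.36).

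SREBF1, the gene of the fatty acid regulator SREBP1 and the paralogue of SREBF2, did not pass the test. Its level was 16.8 and 22.4 CPM in control and 19.6 and 24.0 CPM after SNP, and the groups overlapped. The log2 fold change was 0.16 with a standard error of 0.19 (edgeR quasi-likelihood, Benjamini-Hochberg adjusted p = 0.576). Per length, SREBF2 exceeded SREBF1 by 5.03 and 3.73 times in the controls and by 2.18 and 2.34 times after SNP. SREBF1 shares 556 exonic bases (6.92%) with RAI1 on the opposite strand, which had 1337 to 1787 counts.

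Of 8 SREBP2 targets in sterol uptake and transport, 7 were tested and 5 passed, 3 lower and 2 higher (71.4%, beside 26.2% of all genes). With NPC1L1 left out, 4 of 6 passed (66.7%), 3 lower and 1 higher. Among those that fell were TMEM97, the sigma-2 receptor, with a log2 fold change of -0.63 (edgeR quasi-likelihood, Benjamini-Hochberg adjusted p = 0.0013), and NPC1, which exports cholesterol from lysosomes, with -0.49 (edgeR quasi-likelihood, Benjamini-Hochberg adjusted p = 0.0111). STARD4, a cytosolic sterol carrier, was at 63.2 and 44.9 CPM in control and 77.2 and 74.8 CPM after SNP, a log2 fold change of 0.49 (edgeR quasi-likelihood, Benjamini-Hochberg adjusted p = 0.0127). Its controls differed widely, and without control b the log2 fold change was 0.26 and was not called. NPC1L1, a sterol importer of intestine and liver, had 2 and 4 counts in the controls and 34 and 22 after SNP. It passed the filter on low counts only through the SNP libraries, so it had to differ, and its call is not used as a result. NPC1 was not called without control a, control b or SNP a, with log2 fold changes of -0.48, -0.51 and -0.40.

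Sterol export is set by the liver X receptors, which answer to oxysterols and oppose SREBP2. Of 9 genes listed here, 7 were tested and 1 passed (14.3%, beside 26.2% of all genes), with a median log2 fold change of 0.16. ABCA1, the pump that loads cholesterol onto apolipoproteins, was at 11.6 and 10.7 CPM in control and 29.1 and 35.8 CPM after SNP. Both SNP libraries lay far above both controls. ABCA1 rose 2.91 times, a log2 fold change of 1.54 with a standard error of 0.188 (edgeR quasi-likelihood, Benjamini-Hochberg adjusted p = 5.6e-06), and kept its call in all 19 alternatives. ABCG1 and MYLIP, other targets of the same receptors, had log2 fold changes of 0.16 and 0.20 and did not pass.

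**Figure D3:**
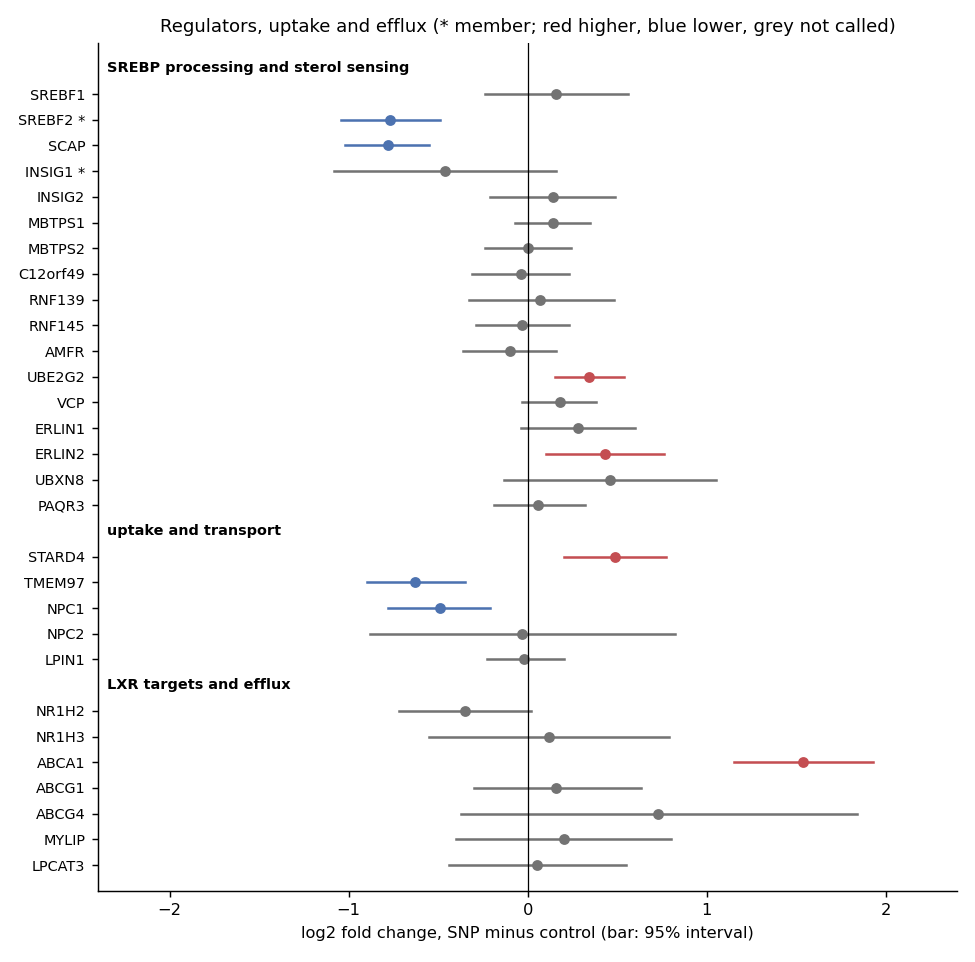
Log2 fold change, SNP minus control, of most tested genes of SREBP processing, sterol uptake and transport, and liver X receptor targets and efflux (points, with 95% intervals as bars); members carry an asterisk, red is called higher, blue called lower and grey not called. NPC1L1, with 2 and 4 control counts, is not drawn. SREBF2 and SCAP lie left of 0, at -0.77 and -0.78, and ABCA1 lies right of it, at 1.54.

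Across all genes the fold change moved with base composition, so each of the 7 is also set beside the genes within 0.5 percentage points of its own guanine minus cytosine content. In the tenth of tested genes whose transcripts have the least guanine relative to cytosine the median log2 fold change was -0.43, with 31 genes higher and 555 lower. In the tenth with the most it was 0.39, with 612 higher and 25 lower. SREBF2 lies low on this scale, at percentile 13.6, and IDI1 and HMGCS1 lie high, at 91.6 and 96.3.

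Among the 992 genes near SREBF2 the median log2 fold change was -0.28, and SREBF2 stood at percentile 11.2 of them. Among the 840 genes near IDI1 the median was 0.34, and IDI1 stood at percentile 73.3. The 1399 genes near SQLE had a median of 0.22, above 0, while SQLE lay at -0.33, percentile 6.65. HMGCS1, at 0.20, stood at percentile 30.6 of 379 genes with a median of 0.39, below most of them. INSIG1 stood at percentile 10.5 of 2229 genes with a median of -0.03. DHCR7 stood at percentile 13.8 of 1094 genes with a median of -0.27, and FDFT1 near the middle, at percentile 57.7 of 2302 genes with a median of -0.02. ABCA1 lay at percentile 98.9 of genes like it.

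With offsets for length, GC content and guanine over cytosine the log2 fold change of SREBF2 was -0.50 and it still passed (edgeR quasi-likelihood, Benjamini-Hochberg adjusted p = 0.00486, the highest over its alternatives, the lowest being 5e-06). IDI1 then had 0.16 and did not pass. SQLE had -0.60 and passed (edgeR quasi-likelihood, Benjamini-Hochberg adjusted p = 0.00335, with 0.00269 to 0.291 over its alternatives). HMGCS1 turned from 0.20 to -0.31, without a call in either case. Under these offsets 7 of the 22 synthesis enzymes were called (31.8%), each of them lower, among them FDPS, SQLE, CYP51A1, LBR and MSMO1. Of all genes, 19.3% were called in this fit, and 8.86% were called lower. Of the 17 genes of SREBP processing and sterol sensing, 4 were called in this fit (23.5%), each of them lower. They were SREBF2, SCAP, INSIG2 and RNF145. The same offsets gave no call to TMEM97, NPC1, STARD4, UBE2G2 or ERLIN2, so neither rise of the processing list kept its call.

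**Figure D4:**
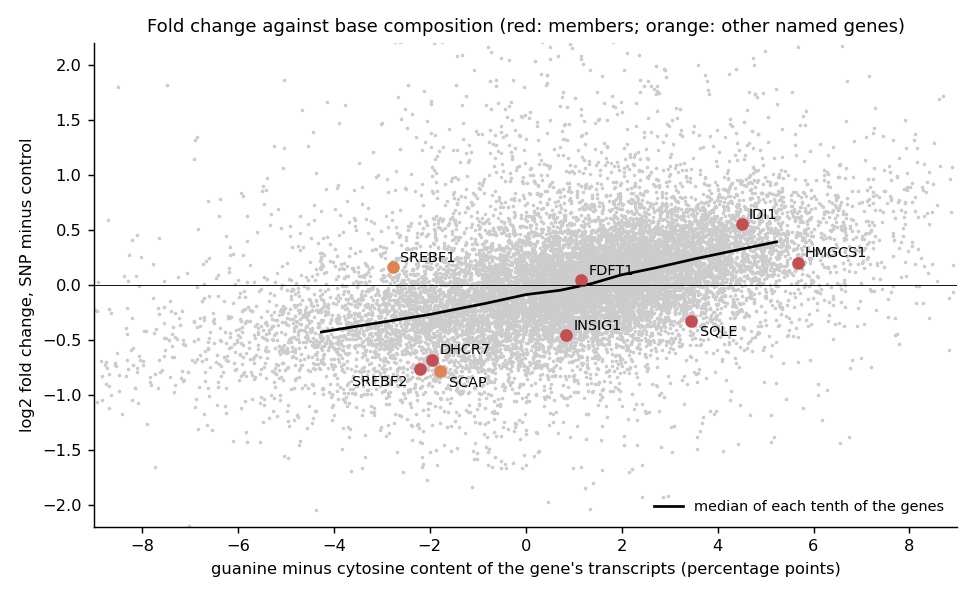
Log2 fold change, SNP minus control (vertical axis), against guanine minus cytosine content of each gene's transcripts in percentage points (horizontal axis). Grey dots are the tested genes within the axes, red points the 7 members, orange points SCAP and SREBF1, and the black line joins the medians of successive equal bins of genes, from -0.43 to 0.39. IDI1 and SREBF2 lie on the side of 0 to which the line leans, and SQLE lies below it.

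**Figure D5:**
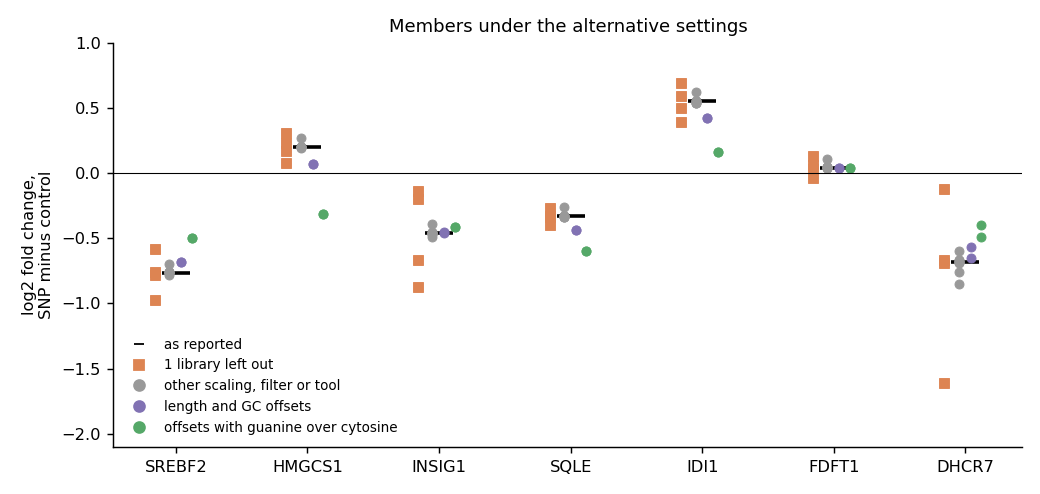
Log2 fold change, SNP minus control, of the 7 members as reported (black bars), with 1 library left out (orange squares), under other scalings, filters or tools (grey), and with offsets for length and GC content (purple) or also for guanine over cytosine (green). SREBF2 stays between -0.97 and -0.50 and IDI1 between 0.16 and 0.69, while DHCR7 runs from -1.61 to -0.12.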

How the data were processed

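RNA of 2 control and 2 SNP libraries was sequenced as 75 bp reads, labelled as 40 M per sample, on GRCh38 per the submitters' processing notes. The aligner and the counter were not given in the sources used here. Per the file headers and the values, the deposited expression column gives raw counts of reads for each gene, in whole numbers. The TPM column deposited by the authors has the same sum in each library, and the RPKM column deposited by the authors implies totals of 50622070 and 48718084 reads in the controls and 60605737 and 61966252 in SNP, larger than the summed counts. Totals of 5613144 to 8056550 counts set the precision.

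Counts were tested with the quasi-likelihood test of edgeR 4.0.16 in R 4.3.3 on all 4 libraries with no covariate, after filterByExpr (minimum count 10, minimum total 15) and TMM scaling (factors 0.989 to 1.011). Benjamini-Hochberg adjustment ran over all 14759 genes tested, and 0.05 was the threshold. Replicates differed by more than sampling noise (chi-square per degree of freedom 2.91 in control and 4.75 in SNP). Lengths, positions and overlaps came from GENCODE 29, whose exon length equalled the length implied by counts and RPKM, within 1%, in 90.7% to 90.8% of genes. Base composition was that of a gene's annotated transcripts, and offsets were lowess curves (span 0.5). Code was tested on simulated counts.

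The members, the gene lists and the tests were chosen with earlier results of these data known. All members, SREBF1 and SCAP were named, and up to 4 called genes per list by size of change; some genes that this rule names are not reported here. INSIG2, MIR33A, MBTPS1, MBTPS2, ABCG1, MYLIP and the genes of the offset fits were added after their values were seen. The 19 alternatives were 3 other scalings, 2 filters, DESeq2 1.42.0, limma-voom (limma 3.58.1), the replicate letter as a block, 4 offset fits, genes without exonic overlap, 4 fits without a library and 2 thresholds.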

Additional observations from a re-analysis of the deposited data

How the results depend on the processing

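With 2 libraries per group and 23 to 516 counts per member and library, small differences were not detectable. The fit of genes without exonic overlap tested 7241 genes in place of 14759, and 10 of the 22 synthesis enzymes. It called 27.9% of its genes, beside 26.2% in the main fit. Its count of 2018 below is therefore smaller while its share is not. The 3861 genes called became 2415 by DESeq2, 2018 of genes without exonic overlap, 2224 at an adjusted p under 0.01 and 647 with a log2 change of 1 or more in size, and 2447 to 4144 with 1 library left out (2482 without control a, 2447 without control b). The 2 members called became 1 (SREBF2) with no filter, by DESeq2 and at 0.01, 0 with a log2 change of 1 or more, 0 without exonic overlap, where 3 members were tested and SREBF2 and IDI1 were not, and 1 to 2 with 1 library left out (1 without control a, 1 without control b). The 3 synthesis enzymes called became 1 by DESeq2, at 0.01, with a log2 change of 1 or more and without exonic overlap, 1 to 4 with 1 library left out, 5 with length and GC offsets and 7 with guanine over cytosine added, both unchanged in number with a replicate block. RABGGTB had -0.13 with the latter offsets, with and without the block. Over the 19 alternatives the calls ranged from 0 to 5 for SREBP processing, 1 to 5 for uptake (NPC1L1 included), 0 to 5 for fatty acid targets, 1 to 2 for efflux, 0 to 2 for storage and 0 to 5 for the farnesyl branches. The replicate block alone, fitted although the letters a and b were not known to pair the libraries (correlation of their deviations 0.043), called 4487 genes, 3860 of them shared, 2 members and 4 synthesis enzymes. The cause of these shifts was not tested.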

Other observations

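Of 12 fatty acid genes driven by SREBP1, 11 were tested and 2 fell (18.2%, beside 26.2% of all genes), with a median log2 fold change of -0.20. FASN, fatty acid synthase, had a log2 fold change of -0.48 (edgeR quasi-likelihood, Benjamini-Hochberg adjusted p = 0.00175), and FADS2, a desaturase, had -0.51 (edgeR quasi-likelihood, Benjamini-Hochberg adjusted p = 0.00286). FADS2 was not called with offsets that include guanine over cytosine. Of 8 genes of sterol storage and oxysterol synthesis, 6 were tested and edgeR's quasi-likelihood test called 0 after Benjamini-Hochberg adjustment, while 2 had an unadjusted p under 0.05, DESeq2 called 0 and limma-voom called 1. The 1 called by limma-voom, CYP27A1, had 0 and 5 counts in the controls and 12 and 15 after SNP and passed the filter only through the SNP libraries.

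Farnesyl pyrophosphate, the substrate of FDFT1, also feeds dolichol, ubiquinone and prenylated proteins. Of 11 genes of these branches, 3 rose, a share of 27.3% near the 26.2% of all genes, and the median log2 fold change was 0.04. NUS1, a subunit of the enzyme that makes dolichol, was at 58.9 and 61.1 CPM in control and 116 and 92.3 CPM after SNP, a log2 fold change of 0.80 (edgeR quasi-likelihood, Benjamini-Hochberg adjusted p = 8.4e-05). Over the 19 alternatives the NUS1 value ran from 0.34 to 0.96. The 921 genes near NUS1 in guanine minus cytosine content had a median of 0.32, and NUS1 stood at percentile 90.1 of them. FNTA, a subunit of protein farnesyltransferase, had 0.42 (edgeR quasi-likelihood, Benjamini-Hochberg adjusted p = 0.00713) and was not called without control b, at 0.32. RABGGTB, a subunit of the enzyme that prenylates Rab proteins, had 0.53 (edgeR quasi-likelihood, Benjamini-Hochberg adjusted p = 0.00207), and its value turned negative with offsets that include guanine over cytosine.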
